A study of Sus scrofa with 5 samples.

Results

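The immediate early genes FOS, FOSB, JUN, JUNB, EGR1, ATF3, IER3, DUSP1, NR4A1 and SOCS3 were examined in porcine backfat, the subcutaneous fat of the back, on Affymetrix GeneChip Porcine arrays. Every probe set whose annotation gave exactly 1 gene symbol, and that symbol among these 10 genes, was taken. This gave 9 probe sets of 7 genes out of 23999 probe sets that were not controls, 3 of them for EGR1 and 1 for each of the other 6 genes. FOSB, JUNB and NR4A1 had no probe set and were not measured. The arrays came from 5 females of an Iberian × Landrace backcross (BC1_LD), 1 array per animal, and all on the same unrestricted cereal feed. The study describes the animals as fasting at slaughter, and their backfat was collected at the slaughterhouse. BC4, BC5 and BC6 belonged to the H group, whose muscle had more polyunsaturated fatty acids, and BC2 and BC3 to the L group, whose muscle had more saturated and monounsaturated fatty acids. The sample labels name only the animals, and their groups were taken from the study. The groups had been formed from a principal component of carcass and fatty acid traits, and they differed in no treatment, sex, breed cross or diet that the sources give.

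Immediate early genes are transcribed within minutes of a stimulus such as a growth factor, a cytokine or cellular stress, without the need for new protein, and most of their transcripts are short-lived. Many encode transcription factors, which set off a later round of gene expression, and others encode feedback inhibitors that switch the signal off. In mouse preadipocyte lines several of them are induced at the start of adipogenic differentiation.

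Values are on the log2 scale as deposited, so that a difference of 1 is a 2-fold difference. The arrays had medians of 4.21 to 4.29, a lowest value of 2.17 and a highest of 16.1. A probe set that read one and the same value on all arrays (6438 of 23999, 26.8%) was taken to be at its floor, and comparisons of order and spread used the 12730 probe sets with 5 distinct values. Of the adipocyte markers, 8 of 10 were measured, with mean log2 values per animal of 10.87 to 11.85 in H and 11.42 to 12.07 in L. The poly-A spike-in controls stood higher on BC5 and BC3 (mean log2 7.56 on BC5, in H, and 7.80 on BC3, in L) than on the other 3 arrays (5.00 to 5.21). The hybridization controls were also higher on BC5 and BC3 (mean log2 11.77 and 11.61, against 11.26 to 11.38). The contrast of H against L is therefore also given without these 2 arrays.

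Among the subunits of the AP-1 transcription factor, FOS and JUN were well above the floor in every animal and differed little between the groups. The FOS probe set (Ssc.1555.1.A1_at) read 13.86, 13.76 and 14.24 in the H animals BC4, BC5 and BC6, against 13.71 and 14.18 in the L animals BC2 and BC3. The groups overlapped, and the high animals were 1 of each group, BC6 and BC3. JUN (Ssc.9075.1.A1_at), the usual partner of FOS, read 13.35, 13.26 and 13.31 in H, against 13.02 and 13.76 in L. Its 3 H values lay within 0.09 of each other and between both L values. ATF3 (Ssc.16466.1.A1_at), a stress-induced factor of the ATF/CREB family that can pair with JUN, read 8.69, 9.41 and 10.43 in H, against 9.16 and 10.68 in L. ATF3 had the widest range of all members, 1.99 between BC4 and BC3, a 3.98-fold difference, and again BC6 and BC3 were the high animals. In bulk tissue, fewer cells of a type and less RNA per cell cannot be told apart in any of these values.

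EGR1, a zinc finger transcription factor, was measured by 3 probe sets. Ssc.16460.1.S1_at read 9.49, 9.88 and 10.35 in H, against 9.12 and 10.72 in L. Ssc.19629.1.A1_at read 9.71, 10.05 and 9.97 in H, against 9.08 and 10.23 in L. Ssc.19629.2.S1_s_at, whose suffix marks probes that can match more than 1 transcript, read 12.94, 12.97 and 13.29 in H, against 12.60 and 13.12 in L. All 3 probe sets were lowest in BC2. The first and second were highest in BC3, and the third in BC6.

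The feedback genes covered a wide span of signal. DUSP1 (Ssc.6058.1.S1_at), a phosphatase that inactivates MAP kinases, read 13.29, 13.12 and 13.72 in H, against 12.84 and 13.94 in L. IER3 (Ssc.5182.1.A1_at), an early response gene involved in cell survival, read 6.65, 6.66 and 6.80 in H, against 6.03 and 7.54 in L. For both genes all H animals lay between the L animals, and the H values of IER3 stayed within 0.15 of each other. SOCS3 (SscAffx.38.1.S1_at), an inhibitor of JAK-STAT signalling by cytokine receptors, was at its floor of 2.17 in BC4 and BC5 and read 2.27 in BC6, all H, and was at 2.17 in both L animals. It therefore had no measured level in 4 of 5 animals, and it is left out of the counts below, which cover the 8 probe sets of 6 genes with 5 distinct values.

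**Figure D1:**
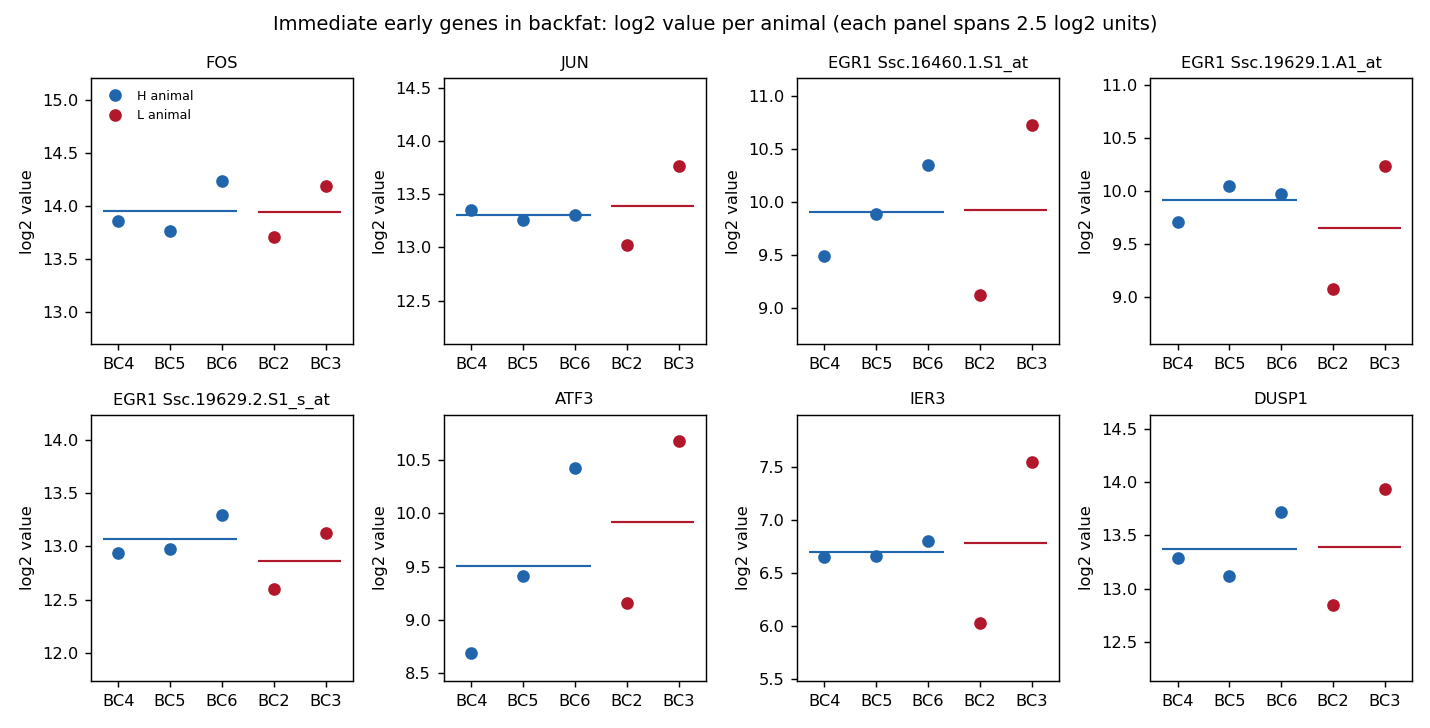
Log2 value (y axis) of the 8 probe sets of FOS, JUN, EGR1, ATF3, IER3 and DUSP1 in each animal (x axis), with H animals in blue at the left and L animals in red at the right, horizontal lines at the group means, and the same span of log2 units in every panel. BC2 is the lowest animal for 7 of 8 probe sets and BC3 the highest for 6 of 8, while the H animals mostly lie between them.

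For the contrast of H against L, none of the 9 probe sets passed the threshold in limma, which asked for an unadjusted p of at most 0.01, an adjusted p of at most 0.1 (Benjamini-Hochberg) and at least a 1.2-fold difference. Over all 23999 probe sets 0 (0%) passed in limma. At an unadjusted p under 0.05 limma gave 384 probe sets higher in H (1.6%) and 378 lower in H (1.58%), and none of them was a member. The smallest p among the members was 0.429, and their adjusted p from limma was 1 throughout. Of the 8 probe sets, 3 had a higher mean in H and 5 a lower mean in H. Their median difference was -0.02 on the log2 scale, beside 0.02 over all probe sets with 5 distinct values, and the median size of the difference was 0.085, beside 0.207.

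FOS averaged 13.95 ± 0.251 in H (SD, n = 3) and 13.95 ± 0.338 in L (SD, n = 2), a difference of 0.01 with a standard error of 0.245. The limma interval of 95% for FOS ran from -0.73 to 0.74. DUSP1 averaged 13.38 ± 0.309 in H (SD, n = 3) and 13.39 ± 0.777 in L (SD, n = 2), a difference of -0.02 with an interval of -1.35 to 1.32. JUN averaged 13.30 ± 0.0451 in H (SD, n = 3) and 13.39 ± 0.526 in L (SD, n = 2), a difference of -0.09 with an interval of -0.88 to 0.71. Thus the group means of these 3 genes lay close together, while the intervals still held differences of 0.7 or more on the log2 scale in either direction for FOS and JUN and of over 1 for DUSP1.

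IER3 averaged 6.70 ± 0.0823 in H (SD, n = 3) and 6.79 ± 1.07 in L (SD, n = 2), a difference of -0.08 with an interval of -1.70 to 1.53. The SD of L was that of 2 animals far apart, and H had no such spread. ATF3 averaged 9.51 ± 0.874 in H (SD, n = 3) and 9.92 ± 1.08 in L (SD, n = 2), a difference of -0.41 with an interval of -2.87 to 2.04, the widest interval of the members. The 3 EGR1 probe sets differed by -0.02, 0.26 and 0.21 in the order given above, with standard errors of 0.641, 0.426 and 0.232. Their directions were not the same, and each difference was smaller than its standard error.

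**Figure D2:**
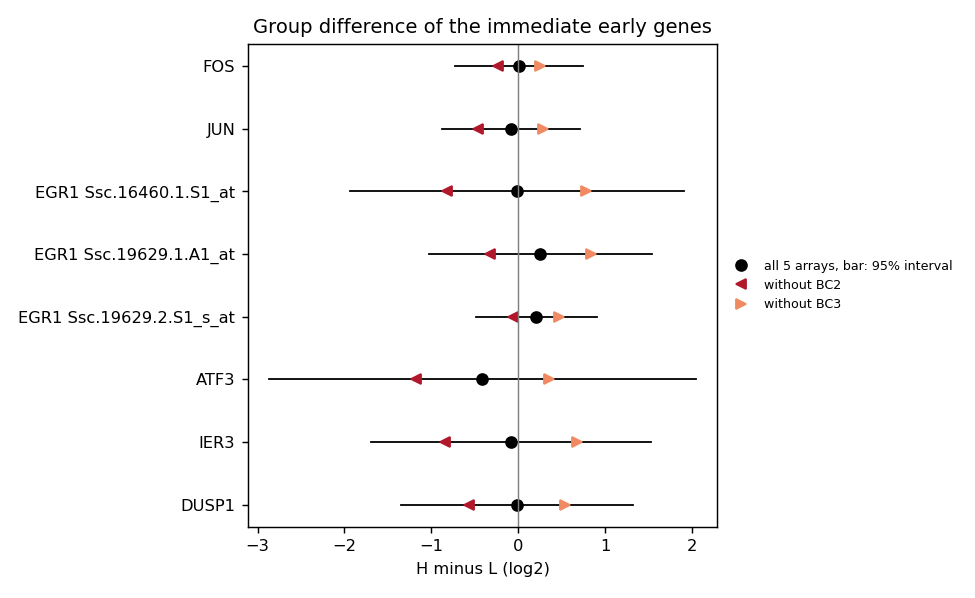
H minus L on the log2 scale (x axis) for each probe set (rows), with the value over all 5 arrays as a black point, its 95% interval from limma as a bar, and the value without BC2 or without BC3 as a triangle. Every interval spans 0, all values without BC2 lie below 0 and all values without BC3 lie above it.

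The L group held both the lowest and the highest animal for most members, so that the sign of the contrast rested on which L animal was present. Without BC2 all 8 probe sets were lower in H, with differences of -0.06 to -1.17 on the log2 scale. Without BC3 all 8 were higher in H, by 0.25 to 0.83. The share of all probe sets with the same sign in these fits was not counted. Each of these fits left a single L array, so only the sizes of the differences are given. The signs of these differences restate that the mean of H lay between BC2 and BC3 for all 8 probe sets, and they are no separate result. Without BC3 and BC5 together, the arrays with the high spike-ins, all 8 were again higher in H, by 0.31 to 0.80. That fit also left BC2 as the only L animal, so its sign rests on BC2 as well.

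The order of the animals was shared by most members. BC2 was the lowest animal for 7 of 8 probe sets (25.9% of all probe sets with 5 distinct values), the exception being ATF3, which was lowest in BC4. BC3 was the highest for 6 of 8 (14.8% of all), the exceptions being FOS and EGR1 Ssc.19629.2.S1_s_at, both highest in BC6. For 5 of 8 both held together (3.95% of all), and for 5 of 8 all H animals lay between the L animals (7.01% of all). The H animals never lay all above both L animals (11.5% of all) or all below both (9.38% of all). Of the 24 values of H animals over the 8 probe sets, 21 lay between the values of BC2 and BC3. These values came from 3 animals, and the same count was not made over all probe sets.

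BC6 and BC3, 1 animal of each group, were both above the other 3 animals for 6 of 8 probe sets (12.5% of all). The exceptions were JUN, in which BC6 lay among the other H animals, and EGR1 Ssc.19629.1.A1_at, in which BC5 stood above BC6. Averaged over the 6 genes, with the probe sets of EGR1 averaged first, the deviation from a gene's own mean was -0.24, -0.13 and 0.29 in BC4, BC5 and BC6 (H), and -0.49 and 0.58 in BC2 and BC3 (L). The median over all probe sets with 5 distinct values deviated by at most 0.04 in any animal. These orders were chosen for counting after the values had been seen, and the members were not drawn at random, so the shares are given as a description with no test.

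**Figure D3:**
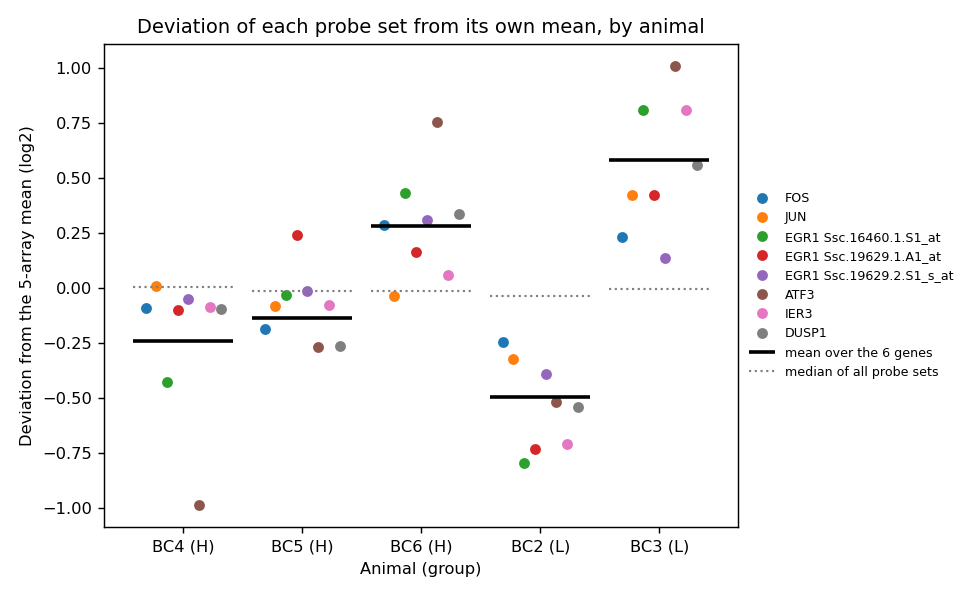
Deviation of each probe set from its own 5-array mean on the log2 scale (y axis) in each animal (x axis, H animals at the left), with 1 colour per probe set, a black line for the mean over the 6 genes and a dotted line for the median of all probe sets with 5 distinct values. All 8 points lie below 0 in BC2 and above 0 in BC3, and 7 of 8 lie above 0 in BC6.

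Other measures of the arrays were set beside this order. The control probe set for 18S ribosomal RNA read 7.80, 7.95 and 8.45 in BC4, BC5 and BC6 (H), and 7.69 and 8.64 in BC2 and BC3 (L), which is the order of the members' mean deviation. The 3′ minus 5′ signal of GAPDH, a measure of RNA integrity that grows with degradation, was 1.90, 2.49 and 1.81 in H, and 1.52 and 1.82 in L, lowest in BC2 and highest in BC5. The same measure of beta-actin was 4.03, 4.80 and 3.85 in H, and 4.06 and 4.77 in L, lowest in BC6 and highest in BC5 and BC3, and that of EF1A was highest in BC5 and lowest in BC2. Adipocyte markers, 8 of 10 with 5 distinct values, had mean log2 values of 11.85, 10.87 and 11.75 in H, and 12.07 and 11.42 in L. Their mean was highest in BC2, and none of the 8 was lowest in BC2 (25.9% of all probe sets). Markers of other cell types differed among the animals in several orders. Macrophage markers, of which 5 of 10 were measured and none was at the floor, had mean log2 values of 5.90, 5.69 and 7.77 in H, and 6.50 and 6.67 in L, highest in BC6, and 2 of the 5 had BC3 and BC6 above the rest. Fibroblast markers, with 7 of 9 measured and COL3A1 at its floor in every animal, had means over the other 6 of 10.88, 10.65 and 11.94 in H, and 11.38 and 11.30 in L, highest in BC6 and next in BC2. Of these 6 markers, 3 had BC3 and BC6 above the rest (12.5% of all probe sets). Endothelial markers, 7 of 10 with 5 distinct values, had means of 9.81, 10.40 and 9.45 in H, and 9.14 and 9.81 in L, and 6 of the 7 were lowest in BC2 (25.9% of all probe sets). Smooth muscle and pericyte markers, 7 of 8, had means of 9.78, 9.15 and 9.24 in H, and 8.54 and 9.44 in L, and 4 of the 7 were lowest in BC2 (beside the same 25.9%). The part of RNA quality, ribosomal RNA and cell makeup in the order of the members was not tested.

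The spread between the animals was wider for most members than for the typical probe set. The range over the 5 animals ran from 0.53 for FOS (1.45-fold) to 1.99 for ATF3 (3.98-fold), with a median of 1.13 for the members and 0.72 over all probe sets with 5 distinct values. It was above that median for 6 of 8, and above the 90th percentile of all, 1.69, for ATF3 alone. Set beside probe sets of like mean level (within 0.5 on the log2 scale), the share with a smaller range was 96.5% for ATF3, 87.8% for DUSP1, 83.9% for IER3, 78.8% for FOS and 68.2% for JUN. For the 3 EGR1 probe sets, in the order given above, it was 93.7%, 83.7% and 57.9%.

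Much of this range lay between the L animals. BC3 exceeded BC2 for all 8 probe sets (53.4% of all probe sets), by a median of 1.13 on the log2 scale, or 2.18-fold, where the median size of this difference over all probe sets was 0.28. The step was smallest for FOS, 0.48 (1.39-fold), and largest for EGR1 Ssc.16460.1.S1_at, 1.60 (3.04-fold). For each probe set it was larger than the difference between H and L. This follows from the order of the animals and is no further result, since the mean of H lay between BC2 and BC3 for all 8. Without BC2 the members' median range was 0.67, beside 0.60 over all probe sets with 5 distinct values, and without BC3 it was 0.82, beside 0.66.

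**Figure D4:**
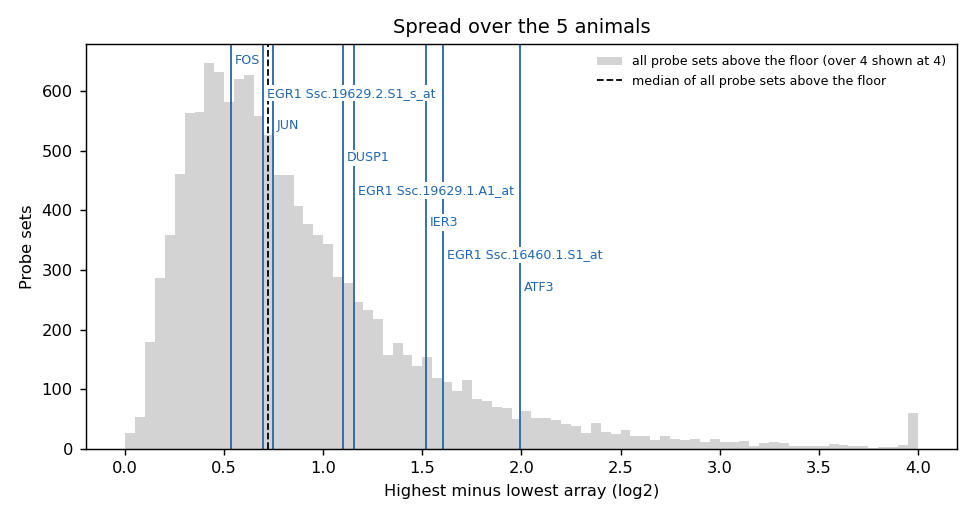
Number of probe sets (y axis) by range over the 5 animals on the log2 scale (x axis) for the 12730 probe sets with 5 distinct values, in grey, with the range of each member as a labelled blue line and the median of all as a dashed line. FOS and EGR1 Ssc.19629.2.S1_s_at lie to the left of the dashed line, and ATF3 lies in the right tail.

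Genes that belong to the same response were taken as 6 lists of AP-1 and EGR relatives, other induced transcription factors, MAP kinase phosphatases, mRNA decay and growth arrest genes, cytokine and STAT3 response genes, and upstream kinases and factors, each gene by its brightest probe set. Of 104 genes listed, 58 were measured and 48 had 5 distinct values. None passed the threshold of limma in either direction. At an unadjusted p under 0.05 there was 1 lower in H and 0 higher in H, and 23 had a higher and 25 a lower mean in H, with a median difference of -0.03. BC3 and BC6 were both above the other 3 animals for 21 of the 48 (43.8%, where all probe sets gave 12.5%). BC3 was highest for 14 of the 48 (14.8% of all probe sets) and BC2 lowest for 16 of the 48 (25.9% of all probe sets).

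The gene at an unadjusted p under 0.05 was CXCL2, a chemokine that attracts neutrophils, which read 12.58, 12.28 and 12.70 in H, against 13.20 and 13.46 in L. Its H animals all lay below both L animals, as in 9.38% of all probe sets with 5 distinct values. The difference was -0.81 with a standard error of 0.18 (adjusted p = 1 from limma). CXCL8, another neutrophil chemokine, read 2.56, 2.21 and 2.58 in H, against 3.23 and 4.82 in L, a difference of -1.57 with a standard error of 0.58 (adjusted p = 1 from limma). The H values of CXCL8 lay near the floor. Both chemokines departed from the order of the immediate early genes in that BC2 stood above every H animal.

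Among the relatives of FOS, FOSL2 read 5.30, 5.19 and 8.38 in H, against 5.72 and 7.48 in L, a range of 3.18 and a 9.08-fold difference between BC5 and BC6. FOSL1 read 2.17 in all 5 animals, and ATF4, a translationally controlled stress factor, read 12.61, 12.16 and 12.68 in H, against 12.44 and 12.60 in L. FOSL2 thus followed BC6 and BC3, and ATF4 did not. DUSP6, a phosphatase of ERK and the sole measured gene of the MAP kinase phosphatase list, read 10.74, 10.33 and 10.14 in H, against 10.06 and 10.44 in L, and was highest in BC4.

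In the list of induced transcription factors the order with BC3 and BC6 above the rest held for 7 of 15 genes with distinct values. The genes of the list with the smallest p were outside it. HES1, a target of Notch signalling, read 10.08, 9.94 and 10.59 in H, against 9.80 and 9.83 in L, a difference of 0.39 (adjusted p = 1 from limma). NFIL3, a basic leucine zipper repressor, differed by 0.37, and CEBPB, a driver of early adipogenesis, by -0.18. Of the genes with the order, picked here after their values were seen, MYC read 8.78, 8.92 and 10.68 in H, against 8.94 and 10.39 in L. NR4A3, of the same receptor family as NR4A1, read 7.34, 7.04 and 8.56 in H, against 7.70 and 8.51 in L.

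Of 13 mRNA decay and growth arrest genes, 7 had BC3 and BC6 above the rest, 7 were lowest in BC2 and 7 were highest in BC3. All probe sets gave 12.5%, 25.9% and 14.8% for these 3 orders. ZFP36, which binds AU-rich elements and speeds the decay of short-lived transcripts, read 11.30, 11.17 and 11.96 in H, against 10.85 and 12.00 in L. CYR61, a matricellular protein induced by serum, read 9.73, 10.49 and 11.11 in H, against 9.12 and 11.42 in L. Both, likewise named after their values were seen, had BC2 as the lowest and BC3 as the highest animal. The genes of this list with the smallest p followed that order only in part. IER2 and MCL1, a survival factor, were lowest in BC2 but not highest in BC3. BTG1, an antiproliferative gene, was highest in BC3 but not lowest in BC2. IER2 differed by 0.42, MCL1 by 0.36 and BTG1 by -0.16, with an adjusted p of 1 from limma for each.

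In the cytokine and STAT3 list the order held for 3 of 10 genes. IL6, the cytokine that induces SOCS3 through STAT3, was 1 of them, picked after its values were seen, at 6.67, 4.84 and 8.33 in H, against 6.18 and 8.37 in L, a range of 3.53 and an 11.6-fold difference between BC5 and BC3. THBS1, an extracellular matrix glycoprotein, read 13.96, 13.68 and 14.15 in H, against 13.05 and 13.79 in L. Among upstream kinases and factors it held for 3 of 7, and the genes with the smallest p, MAP2K2, MAPK9 and MAPK3, differed by -0.19, -0.37 and 0.16. Of these, MAPK9 had BC3 and BC6 above the rest.

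**Figure D5:**
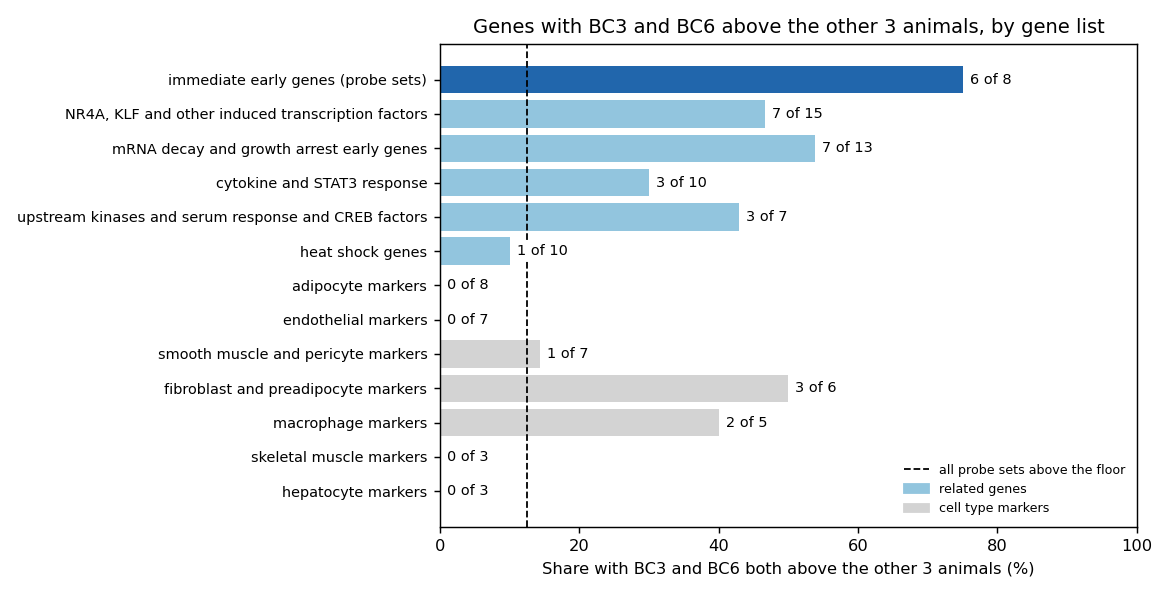
Share of genes (x axis, percent) with BC3 and BC6 both above the other 3 animals, for the immediate early probe sets (dark blue), lists of related genes (light blue) and cell type markers (grey) with at least 3 genes of 5 distinct values, each bar labelled with its count, and a dashed line at 12.5%, the share of all probe sets. The immediate early probe sets have the order in 6 of 8, fibroblast markers in 3 of 6, macrophage markers in 2 of 5 and adipocyte markers in 0 of 8.

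The genes outside the members whose deviations over the 5 animals lay nearest to the mean deviation of the 7 measured members were sought among 6235 probe sets with 1 symbol and 5 distinct values. SOCS3, at its floor in most animals, entered this mean with small deviations. The mean was therefore -0.43 in BC2 and 0.50 in BC3, against -0.49 and 0.58 over the members above the floor. MX2, an interferon-induced GTPase, was nearest at a Euclidean distance of 0.124 on the log2 scale, where the median candidate lay at 0.908. It read 6.43, 6.54 and 7.05 in H, against 6.23 and 7.20 in L. NPTN, a cell adhesion protein, TTLL4, a tubulin glutamylase, NFKBIA, the inhibitor of NF-kappa-B, and ACSL4, a ligase that activates arachidonic acid, followed at 0.163, 0.173, 0.206 and 0.215. All 5 had BC2 as the lowest and BC3 as the highest animal, and their differences between H and L were -0.10 to 0.02. The likeness rests on 5 animals, and the genes were chosen by it.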

How the data were processed

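Total RNA of backfat was labelled and hybridized to GeneChip Porcine arrays, 1 per animal. The tissue was taken as backfat, which the study and the tissue label give, although the extraction note of the submitters names liver. The deposited log2 values had been adjusted for background, normalized between arrays and summarized per probe set by the authors. The methods name GCRMA and the submitters' processing notes RMA, so the method is not settled. No scan date was used here.

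Of 24123 probe sets, 124 controls were left out. H minus L was fitted on the remaining 23999 with limma 3.58.1 (lmFit and eBayes, R 4.3.3) and no covariate, with Benjamini-Hochberg adjustment over all of them. The numerical thresholds were those of the RNA-Seq methods, where the 0.1 applies to a q-value and not to the Benjamini-Hochberg adjusted p used here. P-values measure the spread between 3 and 2 animals, and the number of arrays limits the precision.

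Symbols came from a table of the platform annotation, which gave 1 symbol for 10069 probe sets. All members are named, with up to 3 genes of the smallest p in each related list (by the brightest probe set) and the 5 nearest profiles. Members and lists were chosen with earlier results of these data known. Other scalings, filters, variance models, thresholds, array weights, probe set choices and leaving out each animal were alternatives. The RNA-Seq data were not analysed here.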

Additional observations from a re-analysis of the deposited data

How the results depend on the processing

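With all arrays kept, 60 of 62 member differences, SOCS3 included, kept their direction under other scalings, filters, variance models and array weights. The median difference over the 9 member probe sets went from -0.0152 to 0.0172 with quantile normalization. FOS went to -0.0041 on the log2 scale with median centring and DUSP1 to 0.0592 with quantile normalization, both near 0. No member passed limma's threshold under any alternative. Leaving out 1 animal, 0 to 286 of all probe sets passed (160 without L replicate 2 and 286 without L replicate 3), and the median difference over the 9 member probe sets, SOCS3 included, ran from -0.46 (without L replicate 2) to 0.47 (without L replicate 3). Over the 8 without SOCS3 these were -0.51 and 0.50. Over these fits FOS ran from -0.23 to 0.25, JUN from -0.46 to 0.28, ATF3 from -1.17 to 0.35, IER3 from -0.84 to 0.68 and DUSP1 from -0.56 to 0.53. The EGR1 probe sets ran from -0.82 to 0.78 (Ssc.16460.1.S1_at), from -0.32 to 0.83 (Ssc.19629.1.A1_at) and from -0.056 to 0.47 (Ssc.19629.2.S1_s_at). Without L replicate 3 and H replicate 5, chosen after seeing the data, 305 probe sets passed and the median was 0.52 over 9 and 0.59 over 8 probe sets, with FOS at 0.34, JUN at 0.31, EGR1 Ssc.16460.1.S1_at at 0.80, ATF3 at 0.40, IER3 at 0.70 and DUSP1 at 0.66. Fits on 1 L array assume that it varies like the H arrays. The members' median range ran from 0.672 (without L replicate 2) to 1.127. BC2 was lowest for 5 of 6 genes and BC3 highest for 4 of 6 with 1 probe set per gene. The filter on the dimmest 40% removed SOCS3. Another background correction was not run, since the values are processed. No paired analysis was run, because the sample labels give no pairing of H and L animals. The study used the pedigree to avoid sibs within a group, and kinship between the groups is not given.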

Other observations

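Of 13 heat shock genes listed, 10 were measured, all with 5 distinct values. BC3 and BC6 were both above the rest for 1 of them, near the 12.5% of all probe sets. DNAJB1, a co-chaperone of HSP70, read 9.28, 11.85 and 9.70 in BC4, BC5 and BC6 (H), against 8.80 and 10.85 in BC2 and BC3 (L), a range of 3.06 and an 8.31-fold difference between BC2 and BC5. HSPA8, the constitutive HSC70 chaperone, read 11.49, 13.26 and 12.63 in H, against 11.50 and 12.28 in L, and was also highest in BC5. Both were named after their values were seen. The mitochondrial chaperonins HSPD1 and HSPE1 had the smallest p of the list. HSPD1 read 12.60, 12.44 and 12.50 in H, against 12.95 and 12.78 in L, a difference of -0.35 (adjusted p = 1 from limma), and HSPE1 differed by -0.51 (adjusted p = 1 from limma), with both L animals above every H animal for each. That order held for 9.38% of all probe sets with 5 distinct values.

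Skeletal muscle markers, with 3 of 8 listed genes at 5 distinct values, had mean log2 values of 2.84, 5.83 and 2.42 in H, and 2.60 and 4.28 in L, highest in BC5 and next in BC3. Leptin, an adipocyte hormone, was lowest in BC5 (LEP read 8.27, 4.41 and 10.48 in H, against 9.33 and 8.43 in L). The other adipocyte markers did not share 1 order. ADIPOQ was also lowest in BC5 (9.09), whereas FABP4 (15.485) and LIPE (12.40) were highest there, and the rest were neither. These values were chosen after they were seen and belong to no comparison of the report.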
